A study of Mus musculus with 22 samples.

Results

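The genes described here encode the contractile machinery and the fibre proteins of striated muscle. The set is a list of 40 gene symbols, and each member was found by an exact match of its symbol in the count tables. All 40 were among the 34866 gene rows of the culture tables, and 31 were among the 23911 rows of the cartilage table. Myh1, Myh2, Tcap, Mb, Tnnc2, Mybph, Ckm, Actn2 and Mybpc2 had no row in the cartilage table. By isoform the set was divided into 5 embryonic genes (Myh3, Myh8, Myl4, Actc1 and Tnnt2), 8 slow-fibre genes (Myh7, Myl2, Myl3, Tnnt1, Tnni1, Tnnc1, Mybpc1 and Myoz2) and 11 fast-fibre genes (Myh1, Myh2, Myh4, Myl1, Mylpf, Actn3, Tnnt3, Tnni2, Tnnc2, Mybpc2 and Myoz1). The 16 others are shared between fibre types or have no isoform of one fibre type (Acta1, Actn2, Tpm2, Ttn, Neb, Mybph, Xirp1, Xirp2, Myom1, Myom2, Tcap, Ldb3, Des, Ckm, Mb and Trim72).

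The study measured mouse RNA after loss of Dnmt1, the maintenance DNA methyltransferase, in chondrocytes and cartilage. Primary chondrocytes came from knee articular cartilage at postnatal day 3 to 5. Mutant cultures (cKO) were Prrx1-Cre;Dnmt1 flox/flox and control cultures were Dnmt1 flox, so both groups carried the floxed allele. Untreated cultures (day 0) comprised 3 control and 3 cKO samples, and cultures given BMP2 at 100 ng/µl for 3 days (day 3) comprised 4 and 4. Cartilage, treated with collagenase to remove connective tissue, came from mice at postnatal day 5, with 4 control samples labelled flox and 4 labelled cKO, with replicates 1 and 2 male and 3 and 4 female in each group. Prrx1-Cre is driven by a limb mesenchyme enhancer, so the deletion is not limited to chondrocytes. The labels call culture replicates biological without saying that they are separate litters or preparations, so the p-values measure the spread between these samples, which may in part be technical.

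A sarcomere is the repeating contractile unit of striated muscle. Myosin heavy and light chains form its thick filament, actin with tropomyosin and the troponin complex forms its thin filament, and alpha-actinin and its partners anchor thin filaments at the Z-disc. Embryonic, slow and fast fibres use different isoforms of many of these proteins, and during development embryonic myosin is replaced by adult isoforms. Healthy cartilage has no sarcomeres, although chondrocytes and fibroblasts use related nonmuscle and smooth muscle actins and myosins. Many genes of this kind are known targets of the myogenic regulators, which bind the E-box CANNTG.

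Promoter windows, 250 bases before to 50 after the RefSeq gene start (RefSeq, mouse build GRCm38.p6), were found for 32 of the 40 members. The 4 windows below are shown because their genes span the patterns reported here: an embryonic myosin and a fast light chain that were near 0 in the control cultures, and an intermediate filament gene and a tropomyosin gene that already differed at day 0. Each runs 5′ to 3′ on the gene's strand, and the capitals mark each CANNTG. The window of Myh3 is chr11:67078050-67078349 (plus strand), that of Myl1 chr1:66945007-66945306 (minus strand), that of Des chr1:75360042-75360341 (plus strand) and that of Tpm2 chr4:43523505-43523804 (minus strand).
Myh3: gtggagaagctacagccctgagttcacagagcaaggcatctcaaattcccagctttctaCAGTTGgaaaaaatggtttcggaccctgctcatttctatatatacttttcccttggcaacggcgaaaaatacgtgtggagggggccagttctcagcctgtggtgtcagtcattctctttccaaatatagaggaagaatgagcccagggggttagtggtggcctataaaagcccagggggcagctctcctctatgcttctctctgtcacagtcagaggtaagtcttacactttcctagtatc
Myl1: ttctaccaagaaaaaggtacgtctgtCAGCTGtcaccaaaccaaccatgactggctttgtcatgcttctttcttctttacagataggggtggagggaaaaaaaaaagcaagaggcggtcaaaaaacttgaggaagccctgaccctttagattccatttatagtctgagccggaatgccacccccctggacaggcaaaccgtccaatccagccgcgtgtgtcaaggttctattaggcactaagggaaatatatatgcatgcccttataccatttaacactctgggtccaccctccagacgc
Des: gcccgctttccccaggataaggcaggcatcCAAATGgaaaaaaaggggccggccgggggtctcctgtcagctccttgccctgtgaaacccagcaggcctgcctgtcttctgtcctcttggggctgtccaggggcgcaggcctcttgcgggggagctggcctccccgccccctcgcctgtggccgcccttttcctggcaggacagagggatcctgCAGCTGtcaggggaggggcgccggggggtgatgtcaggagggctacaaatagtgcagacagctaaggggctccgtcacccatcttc
Tpm2: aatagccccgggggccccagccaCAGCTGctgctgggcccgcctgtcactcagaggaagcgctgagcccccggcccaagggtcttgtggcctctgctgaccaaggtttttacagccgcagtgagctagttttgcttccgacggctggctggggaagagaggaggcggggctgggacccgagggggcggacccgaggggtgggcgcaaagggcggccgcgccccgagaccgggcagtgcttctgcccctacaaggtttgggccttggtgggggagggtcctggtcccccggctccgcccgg

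The Des, Myl1 and Tpm2 windows each hold the form CAGCTG, and the E-box of the Myh3 window is of another form. Searched on both strands, CANNTG was present in 34 of 39 windows of the 32 members (87.2%) and in 72.3% of 32851 windows of all genes. CAGCTG, which is contained in CANNTG, was in 17 member windows (43.6%) and in 16.3% of all windows. The MEF2 site was in 6 (15.4%) against 3.19%, and TATAAA was in 11 (28.2%) against 13.6%. The windows of the members held a median of 5 CpG dinucleotides, and those of all genes held 7. The share of windows with under 5 CpG was alike, 38.5% for the members and 38% for all genes. The Myh3 window held 4 CpG, Myl1 7, Des 11 and Tpm2 20, so the 4 genes were not alike in CpG content. A window counts as a match of letters and not as an occupied site, and some members have more than 1 window. No entry was found for Tnnt3, Xirp1, Neb, Myom2, Tcap, Actn3, Tnni2 and Myoz1.

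Dnmt1 was first read in every group as a check of the labels. Its level, as library-scaled counts (CPM), fell from 151 ± 6.61 (SD, n = 3) to 27.8 ± 3.09 (SD, n = 3) at day 0, with single values of 159, 147 and 148 against 26.3, 25.7 and 31.3. At day 3 the controls were at 83.5, 64.9, 65.9 and 68.9 CPM and the cKO at 35.5, 36.4, 23 and 11.6, means of 70.8 ± 8.63 and 26.6 ± 11.8. In cartilage it was at 34.5 to 48.6 against 11.8 to 14.3 CPM, means of 42.5 ± 6.18 and 13.2 ± 1.09 (SD, n = 4 each). No library went against its label. Library totals were 41749327 to 51741478 counts in the day 0 table, and 3 counts, taken here as the floor of detection, equalled 0.058 to 0.0719 CPM there. Day 3 libraries held 14434197 to 18918714 counts (floor 0.159 to 0.208 CPM), and cartilage libraries 1100198 to 1888896 (floor 1.59 to 2.73 CPM). The tissue label was checked on 11 chondrocyte markers such as Col2a1 and Acan. Their summed level was 146456 to 154475 CPM in day 0 controls and 52664 to 64067 in day 0 cKO, 103945 to 126818 and 1785 to 19208 at day 3, and 72625 to 107258 and 35402 to 66430 in cartilage. In the untreated cultures 11 of these 11 genes were called lower in the cKO, after BMP2 9 were, and among the cartilage samples 3 were. Of all genes tested, 31.6% were called lower at day 0, 22.6% at day 3 and 3.04% in cartilage. The lowest value, 1785 CPM, was that of day 3 cKO replicate 4. That library stood apart from the other cKO cultures in several lists. In bulk RNA, fewer cells of a type and less RNA per cell cannot be told apart.

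**Figure D1:**
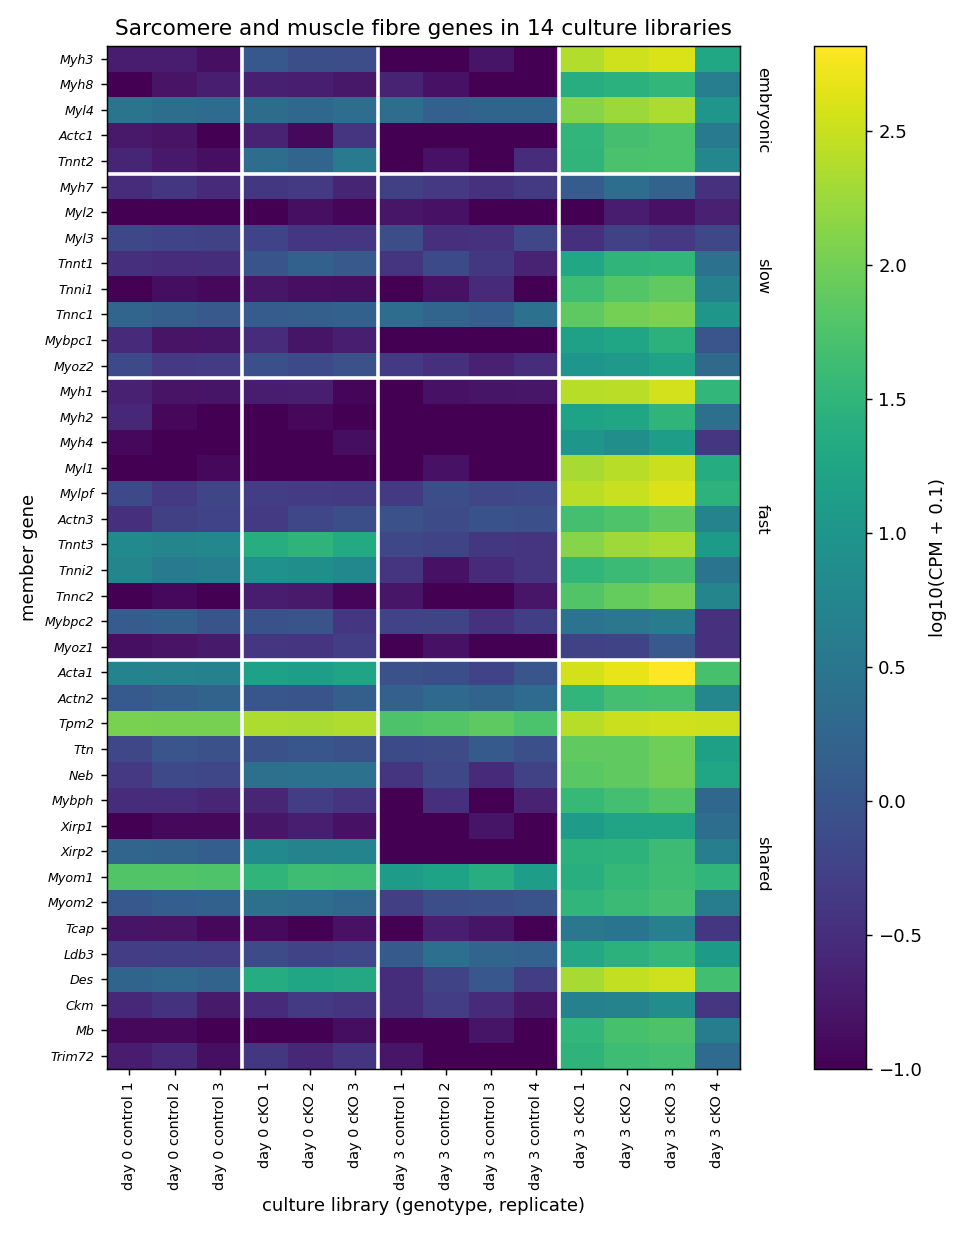
Level of each of the 40 genes (rows, grouped by isoform class) in the 14 culture libraries (columns), as log10(CPM + 0.1) in colour. The first 3 day 3 cKO libraries are bright across most rows, replicate 4 of that group is intermediate, and most control rows at day 3 are dark.

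In the untreated cultures a minority of the set rose in the cKO, led by the desmin gene, the sarcomeric actin gene Acta1, the troponin T genes and nebulin. Of 40 members, 25 had enough counts to be tested, 13 were called higher, 1 was called lower and 11 were not called. The background was wide in this comparison: 64.5% of 15530 genes were called, 33% higher and 31.6% lower. Every cKO library was above every control library for 16 of 40 members, against 35.9% of all genes tested, and below for 2, against 34.4%. Over all 40 the former share is close to that of all genes tested. The sets are not alike, since the 40 include members too low to be tested. Of the 16 only Trim72 and Xirp1 were not tested. The median log2 fold change of the 25 tested members was 0.75, with 0.01 over all genes tested; only members that passed the filter enter it. Calls by class were 2 of 3 tested embryonic genes, 2 of 5 slow genes and 3 of 6 fast genes, all higher, and 6 higher and 1 lower of 11 shared genes. With all 14 cultures in 1 fit 9 members were called, where 42% of genes were, and Myh3 (adjusted p = 0.0991), Myom2 (0.327), Tnni2 (0.354) and Myoz2 (0.316) were not. A fold change is given below as log2 of cKO over control from edgeR's quasi-likelihood test, with its standard error and its p adjusted over all genes.

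Desmin forms the intermediate filaments that link sarcomeres sideways and is also made by smooth muscle. Des was at 1.59, 1.87 and 1.55 CPM in the controls and at 22.7, 18 and 20.2 CPM in the cKO. The groups were far apart, with each cKO library well above each control (log2 fold change 3.60, SE 0.116, adjusted p = 3.03e-08). Tpm2, beta-tropomyosin of muscle and of other contractile cells, was at 114, 108 and 107 CPM in the controls and 224, 216 and 227 in the cKO. Its difference was smaller but also without overlap (1.02, SE 0.0354, adjusted p = 4.33e-08). Acta1, skeletal alpha-actin, rose from 5.08, 4.89 and 4.63 CPM to 15.1, 13.8 and 17 CPM (1.65, SE 0.0923, adjusted p = 6.97e-07). All 3 genes were thus detected in each control culture as well.

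The troponin complex gives the thin filament its calcium response, and its tropomyosin-binding T subunit has 3 genes. Tnnt3, the fast form, was at 6.73, 5.38 and 5.91 CPM in the controls and 23.6, 30.5 and 21.6 in the cKO (2.07, SE 0.137, adjusted p = 1.81e-06). Tnnt2, the form of embryonic and cardiac muscle, was at 0.147, 0.0812 and 0.0443 CPM and at 2.23, 1.63 and 3.69 CPM (4.75, SE 0.456, adjusted p = 1.79e-05). Tnnt1, the slow form, was at 0.231, 0.203 and 0.221 CPM and at 0.875, 1.41 and 1.06 CPM (2.34, SE 0.276, adjusted p = 6.83e-05). So the T genes of all 3 fibre classes were called higher, and none overlapped between genotypes. Of the inhibitory I subunit, fast Tnni2 was called higher, with 5.41, 3.82 and 3.87 CPM against 8.33, 7.88 and 5.94 (0.75, SE 0.169, adjusted p = 0.00359), and slow Tnni1 had at most 3 counts in any library. The calcium-binding C subunit gene Tnnc1 did not pass the test, at 1.64, 1.34 and 1.06 CPM in the controls and 1.2, 1.32 and 1.41 in the cKO (adjusted p = 0.874).

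Of the myosin heavy chains, the motor proteins of the thick filament, only Myh3 was called at day 0, and only Myh3 and Myh7 were tested. Myh3, the embryonic chain, was at 0.105, 0.102 and 0.0443 CPM in the controls and 1.01, 0.726 and 0.705 in the cKO (3.23, SE 0.362, adjusted p = 4.83e-05). In counts this was 2 to 5 against 33 to 44 in libraries of this depth. Slow Myh7 was at 0.199 to 0.305 CPM and at 0.148 to 0.352 CPM, with overlap. The light chain genes Myl4, Mylpf and Myl3 were tested and not called, with adjusted p of 0.264, 0.242 and 0.178. Fast Myl1 had 1 count in all 6 libraries together.

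Nebulin is the giant ruler of thin filament length. Neb was at 0.336, 0.589 and 0.554 CPM in the controls and 2.46, 2.55 and 2.63 in the cKO (2.37, SE 0.207, adjusted p = 9.91e-06). Xirp2, an actin-binding protein of muscle attachment sites, was at 1.68, 1.52 and 1.28 CPM and 6.38, 4.99 and 5.19 CPM (1.88, SE 0.147, adjusted p = 4.98e-06). Both genes were separated by genotype in every library. The Z-disc gene Myoz1 had 2 to 4 counts against 13 to 21 (2.32, adjusted p = 0.00091), the M-line gene Myom2 had 1.01, 1.28 and 1.46 CPM against 2.44, 2.2 and 1.87 (0.79, adjusted p = 0.00427), and Myoz2 had 0.587, 0.325 and 0.376 CPM against 0.76, 0.616 and 0.798 (0.75, adjusted p = 0.039). The Myoz2 call was lost without cKO replicate 1 (adjusted p = 0.096), cKO replicate 3 (0.109), control replicate 2 (0.139) or control replicate 3 (0.111), and with DESeq2 (0.138).

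Myom1 alone was called lower. This gene encodes myomesin 1, which cross-links thick filaments at the M-line, and it was at 60.5, 60.1 and 58.7 CPM in the controls and 31.8, 42.5 and 41.2 in the cKO (-0.63, SE 0.0933, adjusted p = 0.000277). Every cKO library was below every control, which was also so for fast Mybpc2, at 1.17, 1.34 and 0.886 CPM against 0.806, 0.836 and 0.297 (-0.84, adjusted p = 0.0644). Mybpc2 passed the test without cKO replicate 2 (-1.08, adjusted p = 0.0437), with a replicate block (0.0223) and with no filter (0.0445). The other tested members without a call were Actn3, Actn2, Ckm, Ldb3 and Ttn, with adjusted p from 0.0896 for Ldb3 to 0.61 for Ttn. The 15 members that could not be tested were Actc1, Myh8, Tnni1, Myl2, Mybpc1, Myh1, Myh2, Myh4, Myl1, Tnnc2, Mybph, Xirp1, Tcap, Mb and Trim72. Their highest level was 0.396 CPM, that of Mybph in cKO replicate 2. With no filter on low counts none of the 15 was called, the lowest adjusted p being 0.0777 for Trim72, at an overall share of 42% of genes called.

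**Figure D2:**
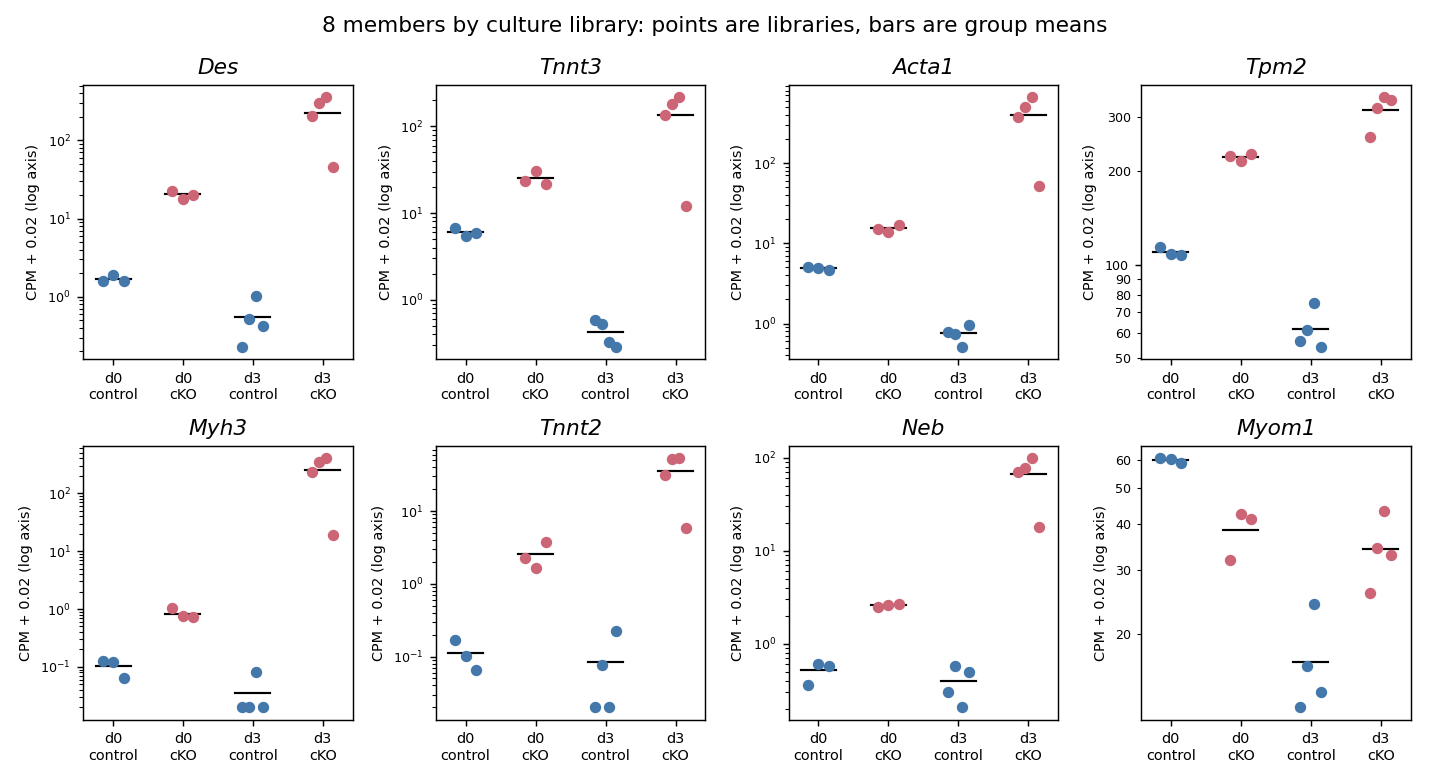
CPM + 0.02 on log axes for 8 members in each culture library (points) with the group mean (bar), for control and cKO at day 0 and day 3. Des, Tnnt3, Acta1, Tpm2, Myh3, Tnnt2 and Neb are higher in every cKO library on both days, and Myom1 is lower in the cKO at day 0 and higher at day 3.

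After 3 days with BMP2 nearly the whole set was higher in the cKO cultures, and much of it was at or near 0 in the controls. All 32 members tested were called higher and none lower, where 48.1% of 13924 genes were called, 25.5% higher and 22.6% lower. The other 8 members (Ckm, Tcap, Myoz1, Myh4, Mybpc2, Myh7, Myl2 and Myl3) had too few counts to be tested. Many tested members passed the filter only through the cKO libraries in which they were high, so this count is a description. Over all 40 members, every cKO library was above every control for 35, against 25.2% of all genes tested. The sets are not alike, since the 40 include the 8 untested members, of which Myoz1, Myh4 and Tcap are among the 35. With no filter on low counts 38 of 40 members were called higher, with 30.2% of genes called, and Myl2 (adjusted p = 0.516) and Myl3 (adjusted p = 0.872) were not. Without cKO replicate 4, 37 members were tested and 37 were called higher, where 55.1% of all genes were called, 28.8% higher. In 1 fit of all 14 cultures 37 of 37 tested members were called, with 57.8% of genes. The median log2 fold change of the 32 was 8.68, or 7.33 with the members at the floor in the controls set to their lower limit, beside 0.01 over all genes.

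In 18 members every control library had 3 counts or fewer, and a fitted fold change then depends on the model's prior count. For the 5 of these with no control count at all a lower bound is given, computed against 3 counts per library. For the others that were high in the cKO the ratio of pooled counts is given with its 95% counting interval, which covers counting error only. Replicate 4 of the cKO was mostly far below the other 3. Left out, it moved the log2 fold change of Acta1 to 9.43, of Des to 9.02, of Mylpf to 9.16, of Tnnt3 to 8.71, of Neb to 7.72 and of Tpm2 to 2.31. Ttn moved to 6.69, Myl4 to 6.71, Actn2 to 4.64, Tnnc1 to 5.66 and Tnnt1 to 6.32. The pooled ratio without it was 21086 (3784 to 832889) for Myh3, 6109 (2090 to 29626) for Myh1, 16727 (3002 to 660743) for Myl1 and 599 (204 to 2906) for Myh8. It was 732 (286 to 2689) for Tnnt2, 969 (378 to 3559) for Tnni1 and 2621 (725 to 21652) for Tnnc2, and each of these 7 ratios was higher than with replicate 4 included.

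Of the thick filament genes, Myh3 had 1 count in the 4 controls together and was at 237, 352, 405 and 19.2 CPM in cKO replicates 1 to 4. The pooled ratio was 16571 (2974 to 654544). Adult fast Myh1 had 3 control counts and was at 253, 262, 355 and 33.6 CPM, a ratio of 4882 (1670 to 23674). An embryonic and an adult fast heavy chain were thus present in the same libraries. Fast Myh2 had no control count and was at 16.4, 17.8, 31.5 and 2.51 CPM, at least 80.9-fold higher, or at least 104-fold without replicate 4. Fast Myh4, also without a control count, was at 10.5, 7.72, 13.6 and 0.306 CPM, at least 38.2-fold higher, or at least 50.4-fold without replicate 4. Perinatal Myh8 was at 0 to 0.14 CPM in the controls and at 23.5, 27.5, 34 and 4.23 CPM, a ratio of 483 (165 to 2344). All these chains had their lowest cKO value in replicate 4. Slow Myh7 differed from them: the controls were at 0.421, 0.334, 0.248 and 0.338 CPM and the cKO at 1.17, 2.32, 1.56 and 0.245 CPM, so replicate 4 was below every control. Without the filter Myh7 was called (1.96, adjusted p = 0.0289).

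Myosin light chains bind the neck of the heavy chain. Fast Myl1 had 1 control count and was at 209, 252, 331 and 22.8 CPM, a ratio of 13254 (2378 to 523524). Fast regulatory Mylpf was at 0.351, 0.724, 0.558 and 0.608 CPM in the controls and 267, 313, 415 and 29.2 in the cKO (8.80, SE 0.929, adjusted p = 0.000151). Embryonic Myl4 was at 2.18, 1.39, 1.61 and 1.62 CPM and 135, 173, 223 and 9.68 CPM (6.32, SE 0.913, adjusted p = 0.000713). The slow and cardiac ventricular chains did not share this: Myl2 reached at most 0.123 CPM in any library, and Myl3 overlapped between genotypes, at 0.223 to 0.702 CPM in the controls and 0.233 to 0.551 in the cKO. Of the myosin-binding proteins, slow Mybpc1 had no control count and was at 15.3, 17.7, 28.4 and 0.919 CPM, at least 73.9-fold higher, or at least 97.1-fold without replicate 4. Mybph was at 0, 0.223, 0 and 0.135 CPM in the controls and 36.5, 47.5, 61.6 and 1.78 in the cKO (8.50, SE 1.31, adjusted p = 0.000998). Fast Mybpc2 was at 0.248 to 0.502 CPM in the controls, 2.74 to 4.1 in cKO replicates 1 to 3 and 0.245 in replicate 4.

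On the thin filament, Acta1 was at 0.773, 0.724, 0.496 and 0.946 CPM in the controls and reached 378, 496, 658 and 51.3 CPM in the cKO (9.07, SE 0.891, adjusted p = 0.000105). Actc1, the actin of heart and of developing skeletal muscle, had no control count and was at 32, 49.2, 54 and 3.74 CPM, at least 165-fold higher, or at least 214-fold without replicate 4. Both sarcomeric actins were therefore separated by genotype in every library. Tpm2 was at 56.6, 61.5, 75.3 and 54.3 CPM and at 258, 320, 347 and 341 CPM (2.35, SE 0.138, adjusted p = 9.41e-06). Neb was at 0.281, 0.557, 0.186 and 0.473 CPM and at 69.4, 77.1, 98.5 and 17.9 CPM (7.41, SE 0.656, adjusted p = 6.16e-05).

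All 7 troponin genes were called higher. Of the T subunits, Tnnt3 was at 0.562, 0.502, 0.31 and 0.27 CPM in the controls and 133, 179, 215 and 12.1 in the cKO (8.33, SE 1.01, adjusted p = 0.000303). Tnnt2 had 4 control counts and was at 31.9, 52.3, 53.6 and 5.82 CPM, a ratio of 587 (229 to 2155), and Tnnt1 was at 0.135 to 0.613 CPM in the controls and 19.4, 31.9, 34.2 and 2.57 in the cKO (5.97, adjusted p = 0.000767). The same order of libraries, with replicate 3 highest and replicate 4 lowest, was seen in the I subunits. Slow Tnni1 had 4 control counts and was at 42.9, 62.6, 77.2 and 4.72 CPM, a ratio of 766 (299 to 2812). Fast Tnni2 was at 0.281, 0.0557, 0.186 and 0.27 CPM and at 32.9, 39.9, 49.2 and 2.82 CPM (7.30, SE 1.01, adjusted p = 0.000582). Of the C subunits, Tnnc1, the slow and cardiac form, was at 2.25, 1.67, 1.3 and 2.57 CPM in the controls and 73.3, 103, 118 and 10.4 in the cKO (5.30, SE 0.733, adjusted p = 0.000584), and fast Tnnc2 had 2 control counts and was at 60.7, 82.7, 104 and 5.33 CPM, a ratio of 2064 (571 to 17048).

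Z-disc, M-line and titin genes followed. Titin is the molecular spring that spans from Z-disc to M-line, and Ttn was at 0.632, 0.669, 1.12 and 0.744 CPM in the controls and 77.1, 78, 92.9 and 14.6 in the cKO (6.36, SE 0.642, adjusted p = 0.000119). The alpha-actinins cross-link actin at the Z-disc. Fast Actn3 was at 0.669 to 0.805 CPM and at 49, 57.5, 77 and 5.08 CPM (5.97, adjusted p = 0.000573), and Actn2 was at 1.4, 1.89, 1.61 and 2.03 CPM and at 32.6, 47.3, 51.5 and 5.76 CPM (4.30, SE 0.635, adjusted p = 0.000802). Ldb3, a Z-disc adaptor, was at 1.12, 2.4, 1.67 and 1.49 CPM and at 19.9, 28.5, 34.6 and 12.1 CPM (3.81, SE 0.374, adjusted p = 0.000105). Myoz2, a calcineurin-binding protein of the slow-fibre Z-disc, was at 0.124 to 0.351 CPM and at 9.9, 11.7, 15.8 and 2.02 CPM (5.43, adjusted p = 0.000398). Its fast relative Myoz1 had 1 control count and 4 to 20 counts in the cKO libraries, a ratio of 36.9 (6.27 to 1492). Tcap, which caps titin at the Z-disc, had 3 control counts and 3.15, 2.98, 4.48 and 0.306 CPM in the cKO, a ratio of 58.9 (19.9 to 288).

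Among the attachment and M-line genes, Xirp2 had no control count and was at 28.4, 29.8, 41.3 and 4.17 CPM, at least 123-fold higher, or at least 157-fold without replicate 4. Xirp1 had 1 control count and was at 12.4, 16.7, 16.9 and 2.27 CPM. Myom2 was at 0.421, 0.724, 0.744 and 0.879 CPM and at 32.1, 39.4, 47.9 and 3.86 CPM (5.46, SE 0.773, adjusted p = 0.000645). Myom1 was the member with the smallest called difference, at 12.6, 16.3, 24.1 and 13.9 CPM in the controls and 25.9, 34.3, 43.3 and 32.8 in the cKO (1.03, SE 0.226, adjusted p = 0.00589), without overlap and opposite in sign to day 0.

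Of the genes with other roles in the fibre, Des rose from 0.211, 0.502, 0.991 and 0.406 CPM to 205, 298, 353 and 45.1 CPM (8.69, SE 0.803, adjusted p = 7.72e-05). Mb, the oxygen-storing myoglobin gene, had 1 control count and was at 33.7, 50.3, 55.9 and 3.86 CPM, a ratio of 2351 (422 to 92886). Trim72, needed for repair of the fibre membrane, had 1 control count and was at 30.8, 42.9, 47 and 2.08 CPM, a ratio of 2006 (360 to 79285). Ckm, the muscle creatine kinase, was at 0.211, 0.39, 0.186 and 0.0676 CPM in the controls and 4.6, 5.05, 7.44 and 0.306 in the cKO, with replicate 4 inside the control range. Without the filter it was called (4.25, adjusted p = 0.00331).

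Levels of different genes were compared only after division by the length of the longest coding transcript, as CPM per kilobase. On that scale Myh3 was at 39.4, 58.3, 67.2 and 3.19 and Myh1 at 41.6, 43.1, 58.4 and 5.53 in day 3 cKO replicates 1 to 4. Of the summed level of the 6 heavy chains, Myh3 held 44.3% ± 8.85 and Myh1 45.9% ± 7.31 (SD, n = 4). Their order was not stable: Myh3 was the higher in replicates 2 and 3 and Myh1 in replicates 1 and 4. Without replicate 4 the shares were 48.4% for Myh3 and 42.5% for Myh1. Myh8 held 4.81% ± 1.42, Myh2 3.39% ± 0.689, Myh4 1.31% ± 0.625 and slow Myh7 0.281% ± 0.103 (SD, n = 4). The adult fast chain most represented was therefore Myh1, with Myh2 and Myh4 far lower in each library.

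Across the 24 genes with a class, fast genes held 66.5% ± 1.29, embryonic genes 18.5% ± 1.77 and slow genes 15% ± 1.8 of the summed level in day 3 cKO (SD, n = 4). Replicate 4 had the lowest embryonic share (16%) and the highest slow share (17.5%) of the 4, and without it the shares were 66.5% fast, 19.3% embryonic and 14.2% slow. On the length scale Mylpf and Myl1 were the highest fast genes in each day 3 cKO library, at 349 and 193 in replicate 1. Myl4 was the highest embryonic gene, at 143 in replicate 1, and Tnnc1 the highest slow gene, at 102. The day 3 cKO shares thus rested largely on a few genes and do not give a fibre-type composition. In day 0 cKO the fast share was 79.7% ± 4.78 and in day 0 controls 68.5% ± 2.28 (SD, n = 3). The day 0 fast share was nearly all Tnnt3 and Tnni2. On the length scale Tnnt3 was at 4.99 to 6.24 in day 0 controls and 20 to 28.3 in the cKO. Tnni2 was at 4.97 to 7.05 and 7.73 to 10.9. No other fast gene passed 0.794 in a day 0 library, so these shares do not describe the fast class as a whole. In day 3 controls the slow share was 50.3% ± 4.28, but this rested on 101 to 131 counts per library. No test was made on shares, which were described per library.

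Within each troponin pair the mix differed by subunit. Slow Tnni1 and fast Tnni2 were nearly equal in day 3 cKO, at 50.4% and 49.6% (SD 2.69, n = 4), and their order changed between libraries. At day 0 Tnni2 held 99.6% in both genotypes. Slow Tnnc1 held 56.6% ± 5.93 and fast Tnnc2 43.4% in day 3 cKO, whereas at day 0 Tnnc1 held 99.5% in controls and 95% in the cKO. Tnnt3 held 68.9% ± 5.71, Tnnt2 19.1% ± 4.86 and Tnnt1 12.1% ± 0.984 of troponin T in day 3 cKO, with Tnnt3 highest in each library. Acta1 held 92.3% ± 0.907 of the 2 sarcomeric actins and Actc1 held 7.67%. Some of these genes share sequence, which can move reads between them: 26.9% of the 50-base windows of Myh2 and 26.7% of Myh1 also occurred in other transcripts, most often in each other, so their separate values are uncertain. The share was 23.4% for Myl1, 22.2% for Myh7, 21.4% for Myh8, 18.9% for Myh4, 4.81% for Myh3 and 2.22% for Acta1, and at most 0.0705% for the other members.

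**Figure D3:**
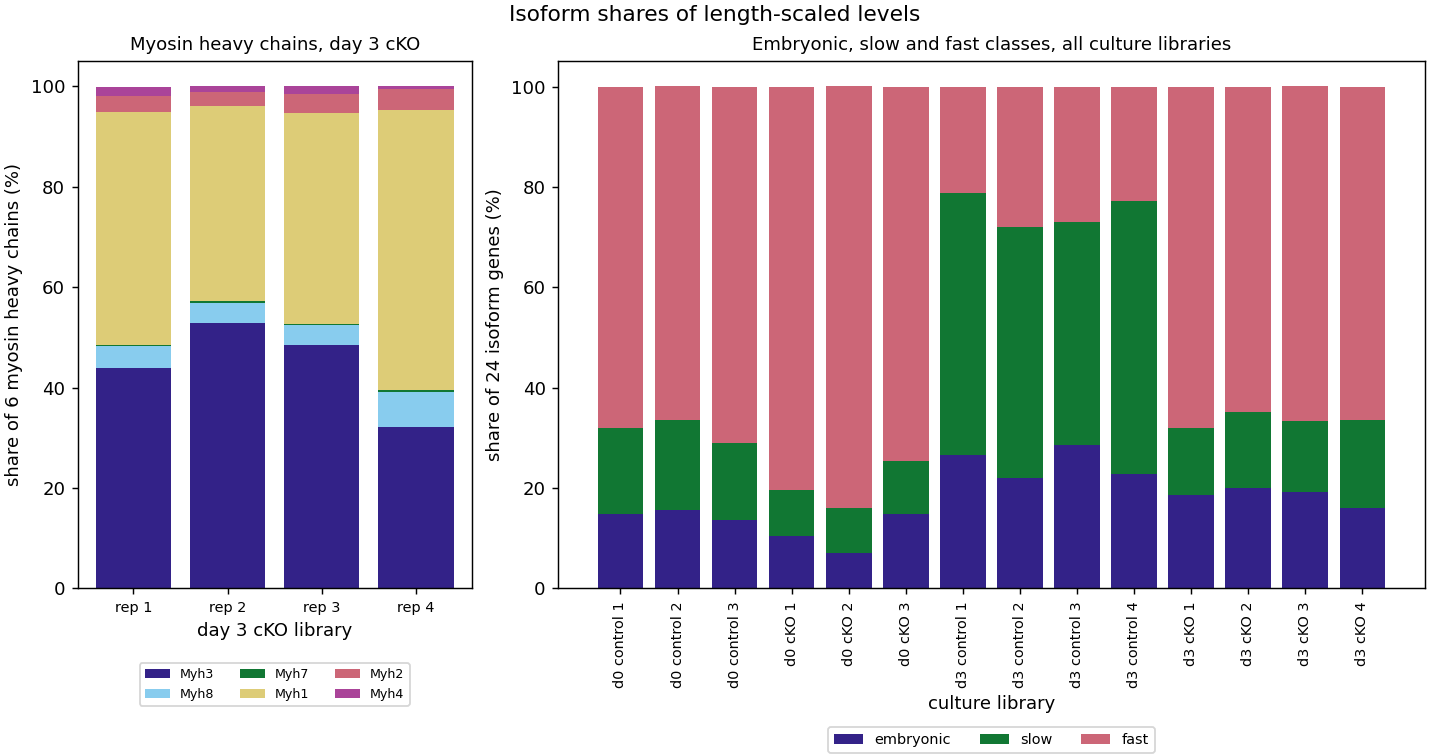
Left, share (%) of each of 6 myosin heavy chains in their summed CPM per kilobase in the 4 day 3 cKO libraries; right, share of the embryonic, slow and fast classes (24 genes) in each of the 14 culture libraries. Myh3 and Myh1 fill most of each left bar, and the fast class takes between 64.8% and 68% of the day 3 cKO bars on the right; the day 3 control bars rest on 101 to 131 counts each.

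Replicate 4 of the day 3 cKO group held less of almost the whole set. Its summed level over the 40 members was 718 CPM, where replicates 1 to 3 had 2906, 3713 and 4603. In 34 members it was under 25% of the mean of the other 3, from 2.88% for Myh4 to 22% for Neb, with a median of 8.73%. The remaining 6 were Tpm2 at 111%, Myom1 at 95%, Ldb3 at 43.9%, Myoz1 at 35.9%, and Myl2 (237%) and Myl3 (164%), both of which had at most 10 counts in any library. By class the median was 8.29% for embryonic, 12.6% for slow, 8.31% for fast and 12.9% for shared genes, so each class was affected. Replicate 4 was still above every control for 36 of 40 members, the exceptions being Myh7, Myl3, Mybpc2 and Ckm. Of the 36, Myl2 had only 2 counts in replicate 4, with at most 1 in a control. Shares over all genes are not given for the 34 and the 36, which are descriptions. Taken alone, replicate 4 was at least 19.8-fold above the controls for Xirp2, at least 17.7-fold for Actc1 and at least 11.9-fold for Myh2. Its Myod1 was at 7.23 CPM against 26 to 47.2 in replicates 1 to 3, its summed smooth muscle markers at 3279 CPM against 714 to 844, and its chondrocyte markers at 1785 CPM against 13556 to 19208. The part of these differences in the lower member levels was not tested.

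**Figure D4:**
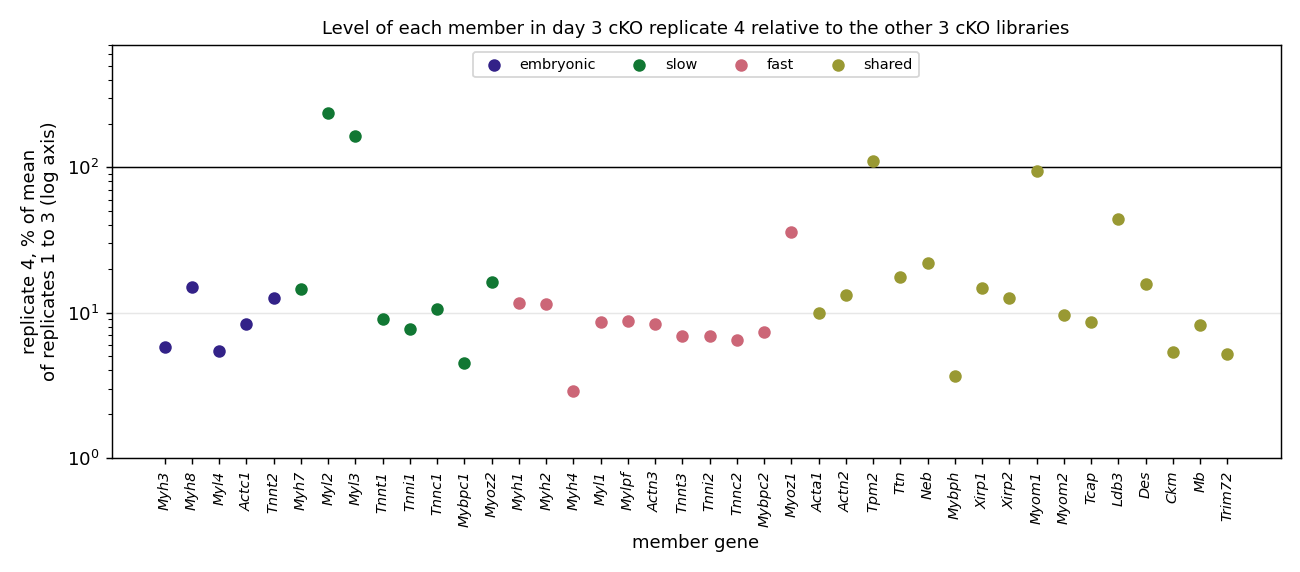
Level of each of the 40 members in day 3 cKO replicate 4 as a percentage of the mean of replicates 1 to 3 (log axis), coloured by class, with a line at 100%. Most points lie near 10%; Tpm2 and Myom1 lie near the line, and Myl2 and Myl3 above it.

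Between day 0 and day 3 nearly all tested members rose in the cKO, and in controls most did not pass the test. Day, BMP2 and count table changed together here and cannot be told apart. In controls 1 of 37 tested members rose and 6 fell, where 56.9% of 14909 genes were called. The fall was from 4.87 to 0.735 CPM for Acta1 (-2.83, adjusted p = 0.00952), and Tnnt3 (-3.95), Tnni2 (-4.58), Xirp2, Myom1 (-1.93) and Tpm2 (-0.93) fell as well. Ldb3 rose (1.96, adjusted p = 0.000847). Fitted without cKO replicate 4, 12 members were called lower in controls and 1 higher, with 65.9% of genes called. In the cKO 36 of 37 rose, with 62.2% of genes called. Of the 37, 11 (Mb, Mybpc1, Myh1, Myh2, Myh4, Myh8, Myl1, Tcap, Tnnc2, Tnni1 and Xirp1) had under 10 counts in every library outside day 3 cKO, so they could enter the fit only through the libraries in which they were high, and these counts and that of the interaction are descriptions. In the cKO, Myom1 was not called (-0.29, adjusted p = 0.22). These comparisons share samples with the genotype comparisons above and are not independent of them.

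The genotype difference was shifted towards a higher cKO level at day 3 for 25 of 37 members and the other way for none, by a test of the interaction that called 16.8% of genes, 9.94% higher and 6.89% lower. Acta1 had an interaction of 7.41 on the log2 scale (SE 0.974, adjusted p = 0.00044), Ttn 6.21 (SE 0.841, adjusted p = 0.00054) and Tpm2 1.32 (SE 0.158, adjusted p = 0.000265). Tnni2, with 6.56, and Tnnt3, with 6.26, had both a fall in controls and a rise in the cKO. Myom1 had an interaction of 1.64 (SE 0.287, adjusted p = 0.00242), its genotype difference being negative at day 0 and positive at day 3. The 12 members without a call were Actc1, Ckm, Mb, Myh3, Myh4, Myh7, Myl1, Tnnc2, Tnni1, Tnnt1, Tnnt2 and Xirp1. Of these, Myh3, Tnnt1 and Tnnt2 were already called higher at day 0. Without cKO replicate 4 the count was 36, with 27.3% of genes called, and Tnnc2 (adjusted p = 0.107) was the exception. Without day 0 control replicate 1 or 2 the count was 19 or 18, where calls over all genes fell as well, from 2509 of 14909 to 1689 of 15239 or 1591 of 15240, and Mybpc1, Mybph, Myh1, Tcap and Trim72 lost the call in both.

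Lists of related genes held no member and were read against the 33% of all genes called higher at day 0 and 25.5% at day 3. A listed gene low in the controls could be tested only through cKO libraries in which it was high. The list counts here and below are therefore descriptions. Of 19 genes of the myogenic programme, 9 were tested at day 0, with 4 higher and 2 lower, and 14 at day 3, with 10 higher. Myod1, the myogenic determination factor, had no count in the 3 day 0 controls and was at 13.3, 7.92 and 11.5 CPM in the cKO, at least 164-fold higher. Myog, the regulator of differentiation, had at most 1 count in each day 0 library and was at 43.9, 63, 71 and 3.37 CPM in day 3 cKO. At day 0, then, Myod1 was present in the cKO while Myog, Myh1 and Myl1 were at or near 0. Pax7 and Myf5, markers of muscle precursors, had at most 2 counts in any culture library. Cdh15 and Pax3, of the same list, went the other way. Cdh15 was at 1.27, 1.25 and 1.24 CPM in day 0 cKO and at most 0.0406 CPM in the controls. At day 3 Cdh15 was at 7.11, 11.7, 14.7 and 1.96 CPM in the cKO and at most 0.186 in the controls. Pax3 had 10, 18, 6 and 63 counts in day 3 cKO and at most 1 in a control. Of 17 excitation-contraction genes, 5 rose and 1 fell (Ryr1) of 8 tested at day 0, and 13 of 13 rose at day 3. Atp2a1, the calcium pump of fast fibres, went from 0.429 to 4.52 CPM at day 0 (3.39, adjusted p = 8.97e-07) and from 0.348 to 63.7 CPM at day 3 (7.48, adjusted p = 0.000523). Of 28 further sarcomere genes, 10 rose and 2 fell (Mypn and Cfl2) of 17 tested at day 0, and 18 rose and 1 fell of 21 at day 3. Ankrd1, a titin-binding stress protein, went from 0.462 to 34.4 CPM at day 0 and from 0.111 to 182 CPM at day 3. Of these genes, Cdh15, Pax3, Ryr1, Mypn and Cfl2 were picked out after their values were seen. The gene that fell at day 3 was Myh6, the atrial myosin (-5.07, adjusted p = 0.000418). Of 10 cardiac markers 2 were tested at day 3, 0 rose and 1 fell, and at day 0 2 of 3 tested rose. Myh6, Tnni3 and Mybpc3 are in both this list and that of the further sarcomere genes, and the 1 that fell is the same Myh6. They summed to 1.24 to 1.28 CPM in day 0 controls and 6.12 to 8.26 in day 0 cKO, and to 1.84 to 2.91 and 1.11 to 5.27 CPM at day 3. Their part in the day 0 difference of Tnnt2, which heart also makes, was not tested.

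Most smooth muscle and nonmuscle relatives of the set were also called higher. Of 10 smooth muscle markers 8 were called higher at day 0, where 33% of all genes were, and 7 at day 3, where 25.5% were and Smtn, picked out after its values were seen, fell (-0.47, adjusted p = 0.0498). Actg2, enteric smooth muscle actin, went from 10.2 to 48.7 CPM at day 0 (2.26, adjusted p = 4.11e-09) and from 1 to 90.3 CPM at day 3 (6.47, adjusted p = 0.00265), or to 23.8 CPM without cKO replicate 4 (4.54, adjusted p = 4.01e-06). Their summed level was 957 to 998 CPM in controls and 1424 to 1675 in the cKO at day 0, and 332 to 407 and 714 to 3279 at day 3. Of 9 nonmuscle relatives 7 were higher at each time. Des and Tpm2, which smooth muscle also makes, were higher at day 0 together with these lists. Their part in the difference of these members was not tested. The 5 haematopoietic markers moved with the set as well, summing to 2.43 to 3.25 CPM in controls and 4.3 to 5.55 in the cKO at day 0 (3 of 4 tested higher) and to 4.92 to 7.36 and 8.74 to 18.6 CPM at day 3 (2 of 3 tested higher). The 5 endothelial markers summed to 1.04 to 1.32 against 1.84 to 1.98 CPM at day 0, where the 1 tested gene was higher, and to 0.31 to 1.01 against 1.31 to 1.51 CPM at day 3, where it was not called. The part of either list in the member differences was not tested. Without day 3 cKO replicate 4 the day 3 counts of higher genes were 12 of 15 for the myogenic programme (1 lower), 15 of 15 for excitation-contraction, 22 of 24 for the further sarcomere genes (1 lower), 7 of 8 for smooth muscle (1 lower), 8 of 9 for nonmuscle relatives, 0 of 2 for cardiac (1 lower) and 2 of 3 for haematopoietic genes (1 lower). Ankrd1 was then at 10.32, Atp2a1 at 7.86 and Myh6 at -4.77 on the log2 scale.

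In cartilage itself the set was close to the limit of detection, and 1 gene, Tnnt3, differed clearly. Of the 31 listed members, 4 passed the filter, 2 were called higher and none lower, with 6.19% of 8793 genes called, 3.15% higher and 3.04% lower. In 17 members no library had more than 3 counts in this table; 9 of the 17 passed 3 counts in some library of the estimated-count table, among them Myh8, Myom2 and Tnnc1. Tnnt3 was at 8.26, 6.83, 9.17 and 7.21 CPM in the controls and 75.6, 42.9, 41.9 and 69.8 in the cKO. The groups did not overlap, and the lowest cKO value was well above the highest control (log2 fold change 2.87, SE 0.264, adjusted p = 3.72e-06, in a fit with sex as a covariate). The call held in every alternative tried. All controls were prepared in 1 library pool and all cKO in the other, so pool and genotype cannot be told apart in any cartilage result. The smooth muscle markers summed to 181 to 243 CPM in the controls and 141 to 258 in the cKO, and the genes of the myogenic programme to 159 to 194 and 96.5 to 161 CPM.

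Des was at 6.75, 5.12, 4.59 and 5.15 CPM in the controls and 10.1, 27.1, 13.4 and 10.3 in the cKO (1.44, SE 0.353, adjusted p = 0.0241). The groups did not overlap, but replicate 2 was higher than the rest, and the call was lost without cKO replicate 2 (1.04, adjusted p = 0.0816), without cKO replicate 3 or control replicate 1 (0.0631 each), without control replicate 2 (0.0816) or 4 (0.0514), with DESeq2 (0.0959) and on the estimated counts (1.12, adjusted p = 0.0744). Tnni2 was at 80.3, 37.5, 60.5 and 13.9 CPM and at 73.1, 234, 54.4 and 71.5 CPM, with overlap and without a call (1.16, adjusted p = 0.092). It passed the test without cKO replicate 1 (1.42, adjusted p = 0.0429), without control replicate 3 (1.59, adjusted p = 0.016) and with no filter (1.13, adjusted p = 1.61e-08), and fell to 0.64 (adjusted p = 0.3) without cKO replicate 2. Tpm2, higher in the cultures, was not called in cartilage, at 45, 44.4, 34.9 and 60.8 CPM against 26.9, 33.2, 64.2 and 35.3 (-0.26, SE 0.223, adjusted p = 0.535). Tnni2 and Tnnt3 lie in the same region of chromosome 7 (142441808 to 142444410 and 142498836 to 142516009, GENCODE M21 on GRCm38), and only Tnnt3 was called here.

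Of the members that could not be tested, Neb was at 0, 0, 2.75 and 2.06 CPM in the controls and 8.4, 6.12, 5.35 and 5.17 in the cKO, without overlap. It was called with no filter (2.22, adjusted p = 0.00289) and on the estimated counts (2.37, adjusted p = 0.00476, with 6.74% of genes called, 3.56% higher and 3.18% lower). With no filter 5 members were called, with 4.37% of genes, and with a replicate block 2, with 6.55% of genes. Acta1 had 3 control counts against 26, a pooled ratio of 10.4 (3.19 to 53.7), and 17 of the 26 came from cKO replicate 2. Every cKO library was above every control for 5 of 31 members (Tnnt3, Acta1, Des, Neb and Myoz2), against 7.12% of all genes tested. Myl3 was below in each, with 5 counts against 0, where 6.4% of genes were below. Of these members only Tnnt3 and Des were tested, so the shares are not over like sets. The embryonic heavy chain Myh3 had 0 counts in the controls and 3 in the cKO, Myh8 0 and 1, and Myh4 0 and 1, all at or under the floor in each library. In the estimated counts Myh8 had 7 to 10 counts in every library of both genotypes, and Myh3 and Myh4 had no more than in the whole-number table. Myod1 had no row in the cartilage table, and none of 3 tested genes of the myogenic programme was called. A genotype difference in Myh3 or Myh4 was not detectable in cartilage at this depth.

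**Figure D5:**
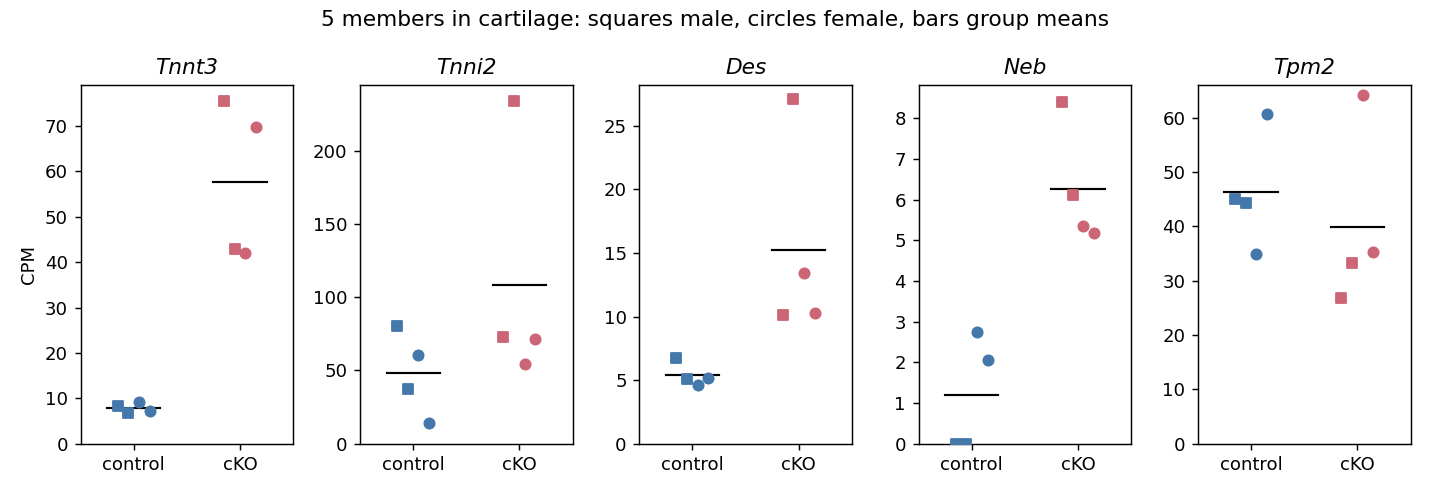
CPM of 5 members in the 8 cartilage libraries (squares male, circles female) with group means as bars. Tnnt3, Des and Neb do not overlap between genotypes, and Tnni2 and Tpm2 do; the 1 high cKO point for Tnni2 (234 CPM) and for Des (27.1 CPM) is replicate 2.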

How the data were processed

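RNA was measured in 14 chondrocyte cultures and 8 cartilage samples. Per the labels' protocols, culture libraries were made with the NEBNext Ultra II Directional kit and cartilage libraries by BRB-seq, a barcoded 3′ method with molecular identifiers. The culture tables deposited by the authors hold estimated counts, since 27.5% (day 0) and 20.5% (day 3) of values are not whole; these were rounded. The deposited cartilage table used as main holds whole-number counts, and a second deposited table with estimated counts was the alternative. Build GRCm38 and, for cartilage, UMI-tools 1.1.1, Trim Galore 0.6.7, HISAT2 2.2.1, featureCounts 2.0.1 and DESeq2 1.34.0 are named per the submitters' processing notes; the aligner of the cultures is not given in the sources used here.

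Each comparison was fitted on all genes with edgeR 4.0.16 (R 4.3.3; TMM, filterByExpr with 10 and 15 as minimum and total count, quasi-likelihood test, Benjamini-Hochberg over all genes, calls at an adjusted p under 0.05), and checked with DESeq2 1.42.0. Genotype was tested within each table, with sex as a covariate in cartilage; the interaction and the day comparisons used all 14 cultures. The fits were tested on simulated data, with changes placed only in genes above the median control level. That test does not cover members near the floor in the controls. CPM used the normalised library size. Lengths and positions were from GENCODE M21. Alternatives were DESeq2 size factors, DESeq2, no filter, a replicate block, all cultures in one fit, no sex term, estimated counts and leaving out each library. Replicate numbers were not taken as pairs in the main fits. Deviations of same-numbered samples correlated between -0.145 and 0.265 across the 3 tables. With 3 or 4 samples per group these correlations cannot exclude pairing.

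All 40 members could be named; per-library values were for members with at least 100 counts in some library or a call, and in related lists at most the 4 largest called differences and genes called at both times. The members and lists were chosen with earlier results of these data known. The planned note called the estimated cartilage counts the table of the membership rule; the rule names the whole-number table, which was main.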

Additional observations from a re-analysis of the deposited data

Results flagged for a closer look

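In cartilage, Tnni2 in cKO replicate 2 was at 234 CPM, where the other 3 cKO samples lay between 54.4 and 73.1. The gap to its nearest neighbour was 0.896 of the group's range, above the 95% critical value of Dixon for 4 samples. This was the 1 flag among 61 groups of values examined, and chance flags about 1 in 20. The same sample had the highest Des (27.1 CPM) and Acta1 (14.9 CPM) of its group.

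The difference between genotypes itself differed between day 0 and day 3 for 25 members by the interaction test of edgeR, each shifted towards a higher cKO level at day 3. The test called 16.8% of all genes, 9.94% higher and 6.89% lower. Of the members tested, 11 had under 10 counts in every library outside day 3 cKO, so the count is a description. Tnnt3 differed by 6.26, Tnni2 by 6.56, Acta1 by 7.41 and Ldb3 by 3.30 on the log2 scale. Tpm2 differed by 1.32, the smallest of those named, and its genotype difference was positive at both times. Myom1 differed by 1.64, with a lower level in the cKO at day 0 and a higher one at day 3. The fitted value of Xirp2, 10.65, rests on a day 3 control group with no count and is no measure of size. Day, BMP2 and count table cannot be told apart in these values.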

How the results depend on the processing

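For single members, 1954 values under the alternatives were compared with the main fits. Members without a call in the main fit of the interaction or a day change were not among them. Calls gained there are therefore not counted. Of the 1954, 1903 kept their direction and their side of the threshold, 41 fell below it, 6 passed it and 4 changed sign. The cause was not tested. The sign changes were in uncalled values at day 0: Myh7 without cKO replicate 2 (-0.06; -0.06 to 0.49 over libraries left out), Tnnc1 without cKO replicate 1 (0.02) or control replicate 1 (0.12; range -0.19 to 0.12), and Ttn without control replicate 1 (-0.04; range -0.04 to 0.31). The count of members called at day 0 was 14, 9 with all cultures in 1 fit and 13 to 16 with each library left out. At day 3 it was 32 and 32 to 37 with each library left out, and in cartilage it was 2, with 1 by DESeq2, 5 with no filter and 1 to 3 with each library left out. For the interaction the range was 18 to 36, for the day change in the cKO 32 to 36, and for that in controls 7 to 13, the 13 being reached without day 3 cKO replicate 4. In cartilage the class shares, taken there from counts, moved on the estimated counts. The slow share in controls went to 13.5% from 8.17%. In the cKO, embryonic went to 6.62% from 3.99%, slow to 10.6% from 6.66% and fast to 82.8% from 89.4%. The classes differed too, since fast Myh1, Myh2, Tnnc2 and Mybpc2 have no row in the whole-number counts. Whole-number sums were 68 to 130 counts per control library and 124 to 352 per cKO library. Tnni2 and Tnnt3 made up most of the fast share. With the replicate number as a block, 15 members were called at day 0 (62.6% of genes), 32 at day 3 (38.7%) and 2 in cartilage (6.55%). With that block 33 were called in the interaction (16.7%), 8 in the control day change (55.3%) and 36 in the cKO day change (60.4%). Whether the numbers pair the samples is not known. Cartilage depth limits many members: 17 of 31 never passed 3 whole-number counts, of which 9 did on the estimated counts.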
